A study of Mus musculus with 18 samples.

Results

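The response of metM-Wnt cells to 72 h without folic acid was measured on 6 arrays of the 18 in the series, 3 of cells in control medium and 3 of cells after withdrawal. metM-Wnt is a murine triple-negative breast cancer line whose tissue of origin is labelled liver metastasis, and the series also holds the lines M-Wnt and E-Wnt, labelled mammary tumor, with 6 arrays each. Control cells had 2.2 µM folic acid and regular fetal bovine serum, and withdrawal cells had 0 µM folic acid and dialyzed serum, so folic acid and serum changed together and cannot be told apart. Each array compared the RNA of a culture, labelled with Cy5 (red), with that of NIH3T3 fibroblasts, labelled with Cy3 (green), as a common reference. The dyes were not swapped. The series' design text describes the 3 arrays of each group as biological replicates, with 1 cell line behind them. The array held 80520 probes that are no controls, and 35308 features, that is genes read by named probes or else single probes, passed the rule that a probe be well above background in red on all 3 arrays of either metM-Wnt group. Of these, 61 could be named as genes. The comparison asks how gene expression in these cells changes when folic acid is withdrawn, and whether the change differs from that of the other lines.

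Folic acid is reduced in the cell to tetrahydrofolate, which carries one-carbon units for the synthesis of thymidylate and purines and for the remethylation of homocysteine to methionine. Serine and glycine are the main donors of these units, glycine through the mitochondrial glycine cleavage system. Cells that run short of folate are known for uracil in their DNA, stalled replication and stress responses. Serum dialysis removes small molecules in general, and so takes away more than folate.

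The metM-Wnt withdrawal arrays were dimmer than the metM-Wnt control arrays. Mean red signal was 3502, 3393 and 3268 with folic acid and 2260, 2784 and 2837 after withdrawal. The share of spots well above background in red was 50.3%, 48.6% and 48.1% against 45.0%, 43.7% and 44.4%. In all, 4127 probes passed the brightness rule through the control arrays alone and 120 through the withdrawal arrays alone, while 31066 passed through both. Of the 62 marker genes of mammary epithelial, mesenchymal, liver, immune, endothelial, fat and red blood cells that were listed, 1 was a named, measured feature (Wfdc18), so the labelled cell type could not be checked against its markers. In these bulk samples, fewer cells of a type and less RNA per cell cannot be told apart.

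The probes that changed most are known by their IDs alone, so their sequences are shown here for a reader to place them. Both probes that fell most are printed whole, and the first 30 of 60 bases are printed for those that rose most. Their position in the genome and the gene they read were not given in the sources used here. All sequences are from the deposited array files, 5′ to 3′, and are in lower case where nothing is marked.
A_51_P164219, fell: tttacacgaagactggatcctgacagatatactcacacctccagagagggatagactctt
A_51_P487690, fell: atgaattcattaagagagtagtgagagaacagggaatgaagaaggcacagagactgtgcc
A_51_P264769, rose: gcagtgtaaattctatccctgagtcctttc
A_52_P561746, rose: gccatgatgagtaaaatgttaagtaaagat

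Withdrawal changed 193 of the 35308 features in metM-Wnt (limma, adjusted p under 0.05), 77 higher and 116 lower. That is 0.547% of the features tested, 0.218% higher and 0.329% lower. The falls were the larger changes, with 37 falls and 10 rises of at least 2-fold. Called changes ranged from -2.19 to 1.83 on the log2 scale with a median size of 0.74, against a median change of -0.02 over all features. The 3 arrays of a group all lay beyond those of the other in each of the 193 called features, and in 20.7% of all features tested (7308). Catalogue probes with IDs that start with A_ gave 160 of the calls (64 higher, 96 lower, of 28934 tested), and non-coding probes with IDs that start with Mm_ncRNA gave 27 (13 higher, 14 lower, of 4624). Probes with IDs that start with VIRS gave 6 calls of 1640 tested, all of them lower. None of the 61 named genes was called.

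The count of calls depended on the model and on single arrays. The 6 metM-Wnt arrays fitted alone gave 0 calls (4823 at an unadjusted p under 0.05, against 4941 in the fit of all 18 arrays), and so did a fit with the slide as a fixed block (2816). Leaving out 1 metM-Wnt array left 22, 85 and 84 calls without control replicates 1, 2 and 3, and 128, 17 and 62 without withdrawal replicates 1, 2 and 3. The metM-Wnt arrays shared no slide with M-Wnt or E-Wnt arrays. Slide and line thus cannot be told apart where metM-Wnt levels are set against theirs. M-Wnt control replicates 1 and 2 lay on a slide apart from M-Wnt control replicate 3 and the M-Wnt withdrawal arrays. Every metM-Wnt control array lay on the slide of metM-Wnt withdrawal replicate 1, and metM-Wnt withdrawal replicates 2 and 3 lay on another slide. Within the slide of the controls, that single withdrawal array gave 0 calls (3050 at an unadjusted p under 0.05).

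The largest falls were in RNAs that M-Wnt raised under the same withdrawal. A_51_P164219, the probe that fell most, read log2 ratios to the reference of 2.81, 1.73 and 3.05 in metM-Wnt control cells and 0.46, 0.33 and 0.24 after withdrawal. The groups did not overlap, the withdrawal arrays lay close together, and control replicate 2 was the lowest of the controls. The fall was 4.55-fold (log2 change -2.19 ± 0.33 SE, n = 3 per group, limma adjusted p = 0.0138). In M-Wnt the same probe rose from -1.97, -2.17 and -2.31 to 2.45, 2.55 and 2.44, a log2 change of 4.63 (limma adjusted p = 8.79e-07). The difference between the responses of both lines was -6.81 ± 0.47 SE (95% interval -7.82 to -5.81, limma adjusted p = 1.91e-06). The level was thus higher in metM-Wnt than in M-Wnt in control medium, and lower in metM-Wnt than in M-Wnt without folic acid. After withdrawal the metM-Wnt mean (0.35) still lay above the M-Wnt mean in control medium (-2.15).

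A_51_P487690 gave a like pattern. Its log2 ratios were 3.21, 2.67 and 4.04 in metM-Wnt control cells and 1.35, 1.23 and 1.2 after withdrawal, a log2 change of -2.05 ± 0.44 SE that barely passed (limma adjusted p = 0.0494) and that was not called under 24 of 36 other settings. In M-Wnt it rose from -0.58, -0.37 and -0.83 to 4.40, 4.25 and 3.91, and the difference in response was -6.83 ± 0.62 SE (limma adjusted p = 1.14e-05). In E-Wnt neither probe passed: the log2 changes were -0.91 and -1.31 (limma adjusted p = 0.480 and 0.416).

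**Figure D1:**
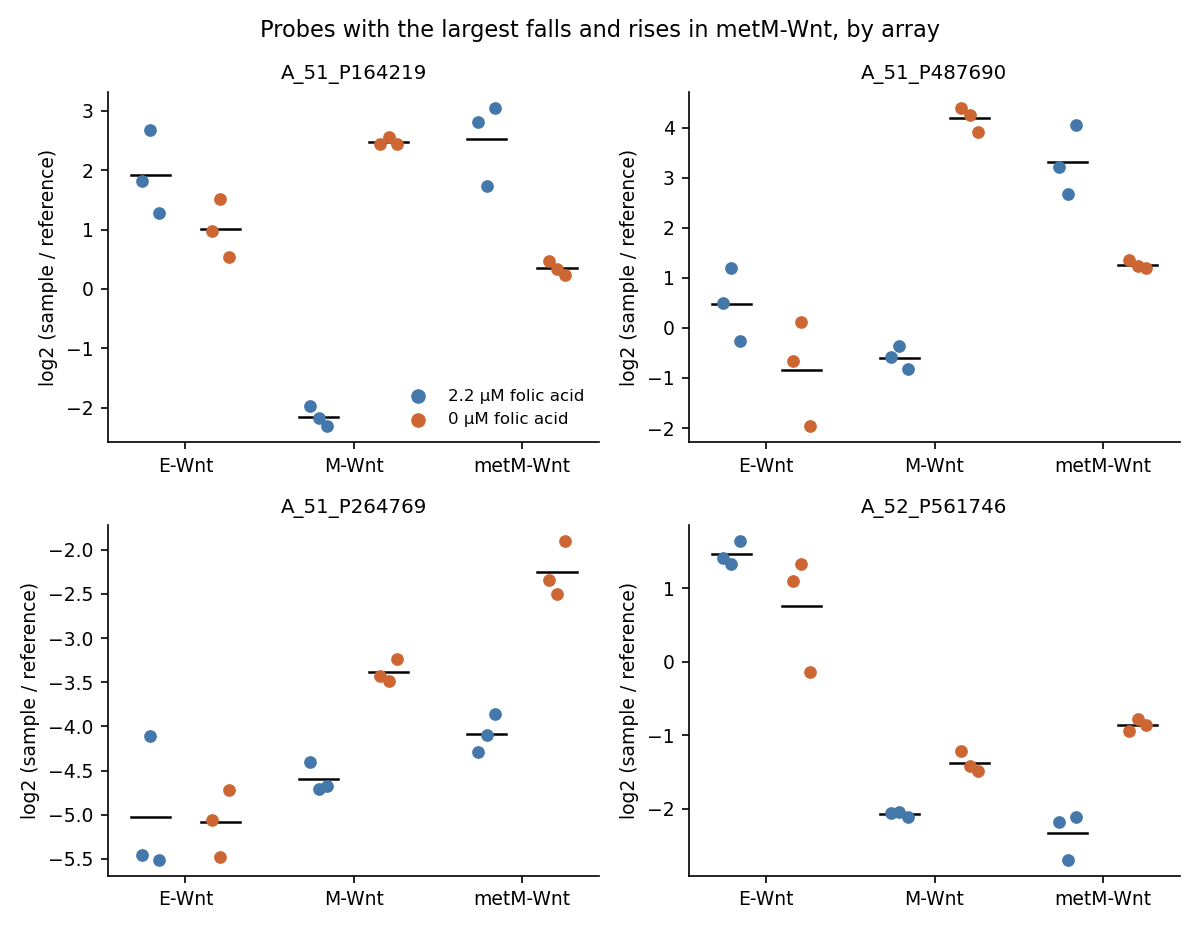
Log2 ratio of sample to NIH3T3 reference (y axis) on each array for the probes that fell most (upper panels) and rose most (lower panels) in metM-Wnt, by line (x axis) and medium (colour); points are arrays and bars are means of 3. In the upper panels the metM-Wnt points fall and the M-Wnt points rise after withdrawal, while in the lower panels the metM-Wnt withdrawal points all lie above the control points.

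Of the 116 features that fell in metM-Wnt, 44 rose in M-Wnt, 27 fell there and 45 were not called there. The background in M-Wnt was 11.1% of all features called higher and 9.48% called lower. The 44 are 37.9% of the metM-Wnt falls and 1.12% of the 3932 M-Wnt rises. They include 30 of the 37 falls of at least 2-fold, and none of these 37 was called lower in M-Wnt. The differences between the lines ranged from -6.83 to -1.12 in the 44, which were chosen for opposite calls in both lines, so that this difference describes the choice. Over all features, the difference in response was called in 6.09% (2150). The median change of the 44 was -1.32 in metM-Wnt, 2.40 in M-Wnt and -0.23 in E-Wnt, where none of them was called. In E-Wnt, 39 of the 44 had a lower mean after withdrawal, while the median change of all features there was -0.003. The difference in response between metM-Wnt and E-Wnt was called in 1 of the 44, next to 0.0906% of all features. By ID, 40 are catalogue probes, 2 non-coding probes and 2 VIRS probes.

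The median level of the 44 features describes the same choice array by array. In metM-Wnt it was 1.67, 1.08 and 1.96 with folic acid and 0.34, 0.33 and 0.30 without. On the M-Wnt arrays it was -0.22, -0.22 and -0.33 in control medium and 1.80, 1.79 and 1.79 after withdrawal. In control medium, 40 of the 44 were called higher in metM-Wnt than in M-Wnt. That comparison uses the same control arrays as both responses, so the count follows in part from the choice. The share of all features called so is not given here. The median SD over the 44 was 0.39 between metM-Wnt control arrays and 0.13 between metM-Wnt withdrawal arrays. Control replicate 2 was the lowest control in 35 of the 44, in 23 of the other 72 falls, and in 31.5% of all features. Called lower in metM-Wnt were 4, 31 and 7 of the 44 without metM-Wnt control replicates 1, 2 and 3, and 16, 4 and 7 without withdrawal replicates 1, 2 and 3. Their median change was -1.54 without control replicate 2 and -1.21 with the slide as a fixed block.

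**Figure D2:**
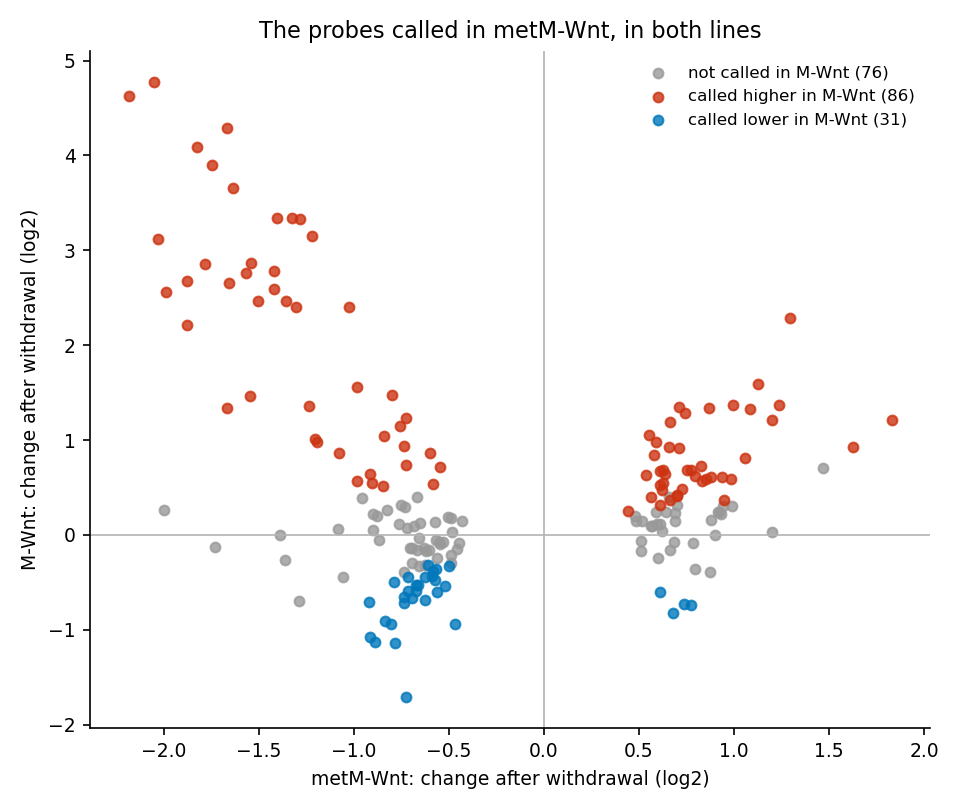
Log2 change after withdrawal in metM-Wnt (x axis) and in M-Wnt (y axis) for the features called in metM-Wnt; each point is a feature, coloured by its call in M-Wnt. The 44 falls that M-Wnt raised fill the upper left, and 42 of the 77 rises lie among features also called higher in M-Wnt.

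Another 7 falls of at least 2-fold were not called in M-Wnt, and an overlapping pair of probes is among them. The pair is shown here because both probes were called and share much of their sequence. They differ at the base after the shared run and then match again up to the end of the first probe. Capitals mark the run of 37 bases that they share.
Pair, first probe: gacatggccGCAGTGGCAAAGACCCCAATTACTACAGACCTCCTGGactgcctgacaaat
Pair, second probe: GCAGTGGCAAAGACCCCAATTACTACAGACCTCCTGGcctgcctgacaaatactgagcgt
The first probe read 1.08, 0.39 and 1.28 in control cells and 0.02, -1.65 and -1.63 after withdrawal, a log2 change of -2.0 ± 0.33 SE (n = 3 per group, limma adjusted p = 0.0186). The second read 3.95, 3.55 and 4.0 and then 3.04, 2.64 and 2.56, a change of -1.08 ± 0.17 SE (limma adjusted p = 0.0138). Both groups stood apart for both probes, and withdrawal replicate 1, the array on the slide of the controls, read highest of the withdrawal arrays. In M-Wnt the changes were 0.26 and 0.06 (limma adjusted p = 0.590 and 0.826).

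Called probes and the measured probes that overlap them changed in the same direction in nearly all cases. Of the 193 called probes, 33 share a run of at least 20 bases, in the same orientation, with another measured probe, in 33 pairs. In 32 pairs both changes had 1 sign, as did 77.7% of all 3757 such pairs among the measured probes. In the other pair, which shares 45 bases, a called rise of 0.94 stood against -0.29 for its partner (limma adjusted p = 0.359). Both probes were called in 9 pairs, with 1 sign in each, and these pairs form 6 sets of 14 probes. A set of 3 probes fell by 0.90, 0.88 and 0.75 on the log2 scale, and was not called in M-Wnt (0.22, 0.21 and 0.32). Another set of 3 rose by 0.68, 0.74 and 0.78 and fell in M-Wnt by 0.82, 0.73 and 0.74. Non-coding transcripts read by several measured probes were counted likewise: of 1246, 14 had a called probe, and 13 of these had probes of 1 sign throughout, next to 77.2% of the 1246.

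Of the 77 rises in metM-Wnt, 42 were rises in M-Wnt too (54.5%), 4 were falls there and 31 were not called. Of all features, 11.1% were called higher and 9.48% lower in M-Wnt. A_51_P264769, the probe that rose most, read -4.29, -4.10 and -3.86 in control cells and -2.34, -2.50 and -1.90 after withdrawal. The groups stood apart, and the rise was 3.56-fold (log2 change 1.83 ± 0.29 SE, limma adjusted p = 0.0161). In M-Wnt it rose by 1.21 (limma adjusted p = 0.00894), and the difference in response, 0.62 (95% interval -0.26 to 1.5, limma adjusted p = 0.410), was not called. In E-Wnt it was well above background on 1 of 3 control arrays and on 0 of 3 withdrawal arrays.

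A_52_P561746 read -2.18, -2.69 and -2.11 in control cells and -0.94, -0.78 and -0.86 after withdrawal, a log2 change of 1.47 ± 0.27 SE (limma adjusted p = 0.0269). Its change in M-Wnt was 0.70 (limma adjusted p = 0.0720). In E-Wnt it read 1.41, 1.33 and 1.64 in control cells and 1.10, 1.33 and -0.14 after withdrawal. That change was -0.70 (limma adjusted p = 0.513), with withdrawal replicate 3 far below the other arrays. The response of metM-Wnt differed from that of E-Wnt by 2.16 ± 0.38 SE (limma adjusted p = 0.0418). The 42 shared rises are 1.07% of the M-Wnt rises. Of the 10 rises of at least 2-fold, 8 were called higher in M-Wnt, next to 11.1% of all features. The median change of the 77 was 0.70 in metM-Wnt, 0.40 in M-Wnt and -0.08 in E-Wnt.

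Against E-Wnt, 32 features (0.0906%) differed in response, 24 with the more positive change in metM-Wnt and 8 with the more negative. At an unadjusted p under 0.05 there were 4761. The count of 32 went from 11 to 705 with 1 array left out. E-Wnt itself had 13 called features (0.0368%), and its replicate arrays spread most, with a median SD of 0.18 in control medium and 0.23 after withdrawal, against 0.17 and 0.15 in metM-Wnt and 0.11 and 0.12 in M-Wnt. Spots of a probe on an array differed far less, with a median SD of 0.05 and 0.06 in the metM-Wnt groups.

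Some probes were measurable in control cells and not after withdrawal. There were 921 probes well above background on all 3 metM-Wnt control arrays and on none of the 3 withdrawal arrays, and 14 of these were called, next to 0.329% of all features called lower. They passed the brightness rule through the control arrays, where they are bright, so that their direction follows from the choice. For such a probe the fold is a bound from the red channel alone, open to dye bias. It is set against the lowest signal that still counted as well above background on the withdrawal arrays. Where the probe's own signal there was higher, that signal was used. Of the 921 bounds, 702 were above 1-fold, and the median was 1.10-fold. The largest bound among the called probes was at least 3.08-fold (limma adjusted p = 0.0220), and the smallest at least 1.14-fold (limma adjusted p = 0.0204). No probe was well above background on all 3 withdrawal arrays and on 0 control arrays. The lower red signal of the withdrawal arrays goes with this one-sidedness, and its part in it was not tested.

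The base composition of the probes moved with the response. Called rises had a median GC content of 36.7% and called falls of 45.0%, against 43.3% for the measured probes. Over all measured probes the median change went from 0.08 in the quintile with the lowest GC content to -0.08 in the quintile with the highest, and the calls went from 36 higher and 17 lower to 3 higher and 28 lower. Per 10% of GC content, withdrawal replicates 1, 2 and 3 had slopes of -0.093, -0.021 and -0.061 log2 units against the control mean, and the controls had 0.032, -0.0024 and -0.030. The part of GC content in the result was not tested beyond a correction. That correction, added after the data were seen, gave 171 calls, of which 141 were among the 193, and all 193 kept their direction. Direction differed with signal strength too, without a steady trend. In the dimmest quintile of features 43 of 47 calls were falls, and in the middle quintile 13 of 38. The brightest quintile had 23 falls and 15 rises.

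**Figure D3:**
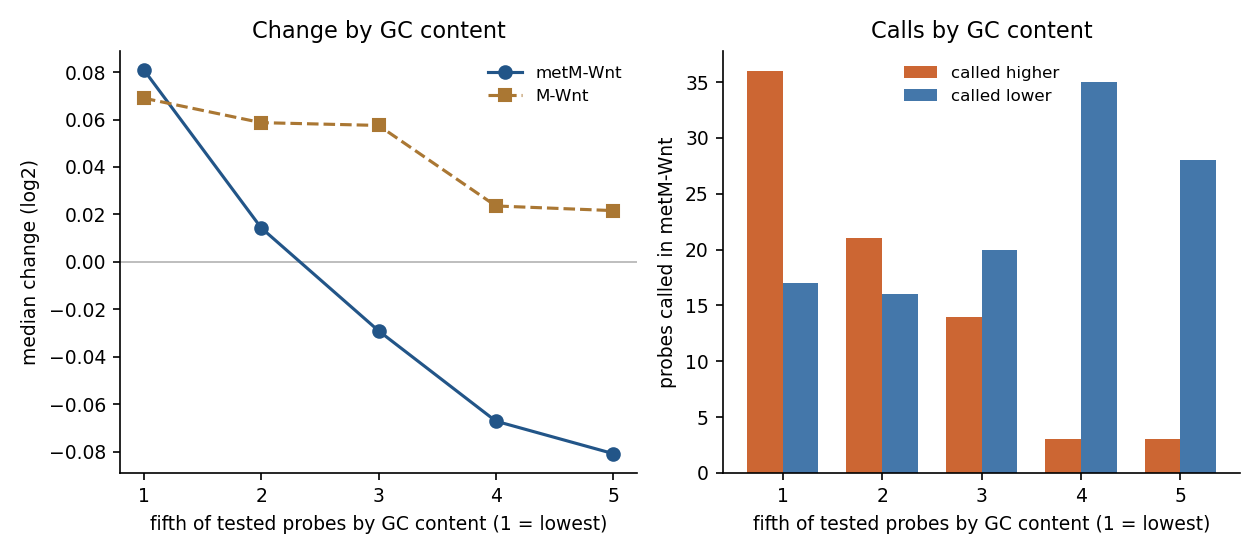
Left, median log2 change after withdrawal (y axis) in each quintile of measured probes by GC content (x axis) in metM-Wnt and M-Wnt. Right, number of probes called higher or lower in metM-Wnt in each quintile. Rises are most numerous in the lowest quintile (36 of 53 calls there). Falls are most numerous in the quintile next to the highest (35, with 3 rises), followed by the highest (28 of 31).

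No named gene passed the test in metM-Wnt. Of the 61, 30 had a higher and 31 a lower mean after withdrawal, the median change was -0.01, and the changes ranged from -0.41 to 0.39. For 59 of them the 95% interval lay within a 2-fold change in either direction. The groups stood apart in 10 of the 61, next to 20.7% of all features, and 8 reached an unadjusted p under 0.05, next to 14.0% of all features. In M-Wnt, 11 of the same 61 genes were called, 3 higher and 8 lower, next to 11.1% and 9.48% of all features. The genes are named by an accession in the probe ID. A probe of 3 of these genes (Gm6034, Hsd17b2 and Supt4a) overlaps another measured probe of the opposite orientation, 11 named probes overlap one of the same orientation, and the others overlap no unnamed measured probe, so their orientation was not checked.

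**Figure D4:**
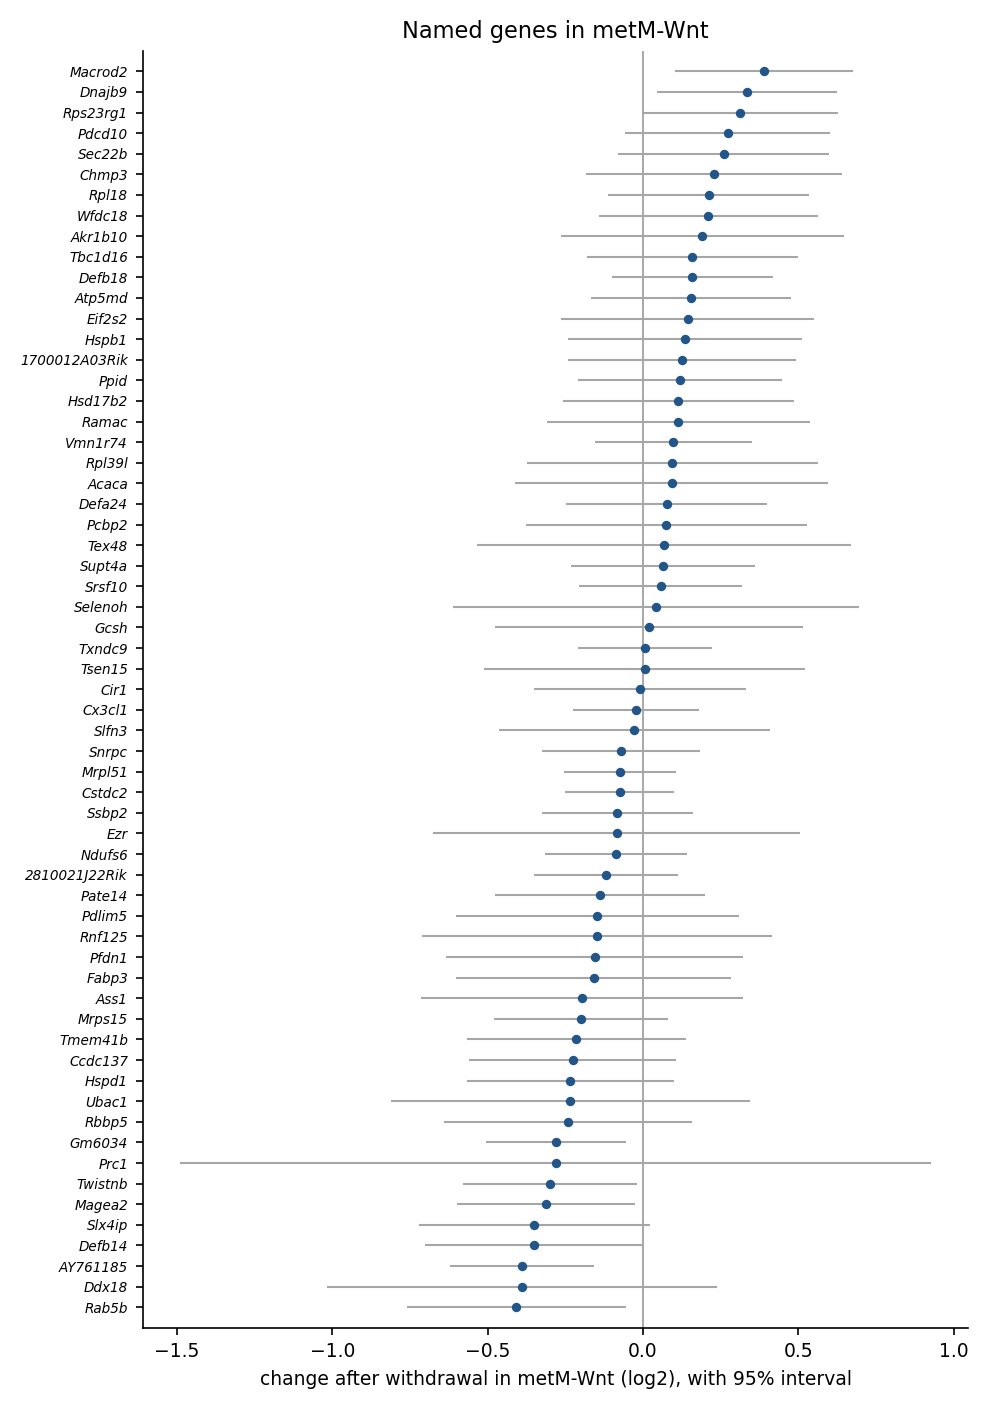
Log2 change after withdrawal in metM-Wnt (x axis) for each of the 61 named genes (y axis, ordered by change); points are model estimates from 3 arrays per group and bars are 95% intervals. The points run from -0.41 to 0.39, and none was called after adjustment over all features.

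Gcsh, the H protein that shuttles the aminomethyl group in the glycine cleavage system, was the only 1 of 36 listed folate and one-carbon genes that was measured under a gene name. Its log2 ratios were 0.36, -0.12 and -0.24 in control cells and -0.03, 0.51 and -0.43 after withdrawal. The groups overlapped fully, with a change of 0.02 (95% interval -0.48 to 0.52, limma adjusted p = 0.988). In M-Wnt it fell by 0.82 (limma adjusted p = 0.0213). The difference between the lines, 0.84 (95% interval 0.14 to 1.55), was not called (limma adjusted p = 0.147).

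Gcsh can be checked by sequence, since 2 catalogue probes overlap the named probe in the same orientation. Capitals mark the bases that each shares with the named probe, or, in the named probe, with either of them.
Gcsh, named probe: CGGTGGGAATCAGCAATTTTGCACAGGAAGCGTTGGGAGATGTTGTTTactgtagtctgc
Gcsh, overlapping probe 1: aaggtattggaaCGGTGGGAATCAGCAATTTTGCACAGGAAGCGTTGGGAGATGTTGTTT
Gcsh, overlapping probe 2: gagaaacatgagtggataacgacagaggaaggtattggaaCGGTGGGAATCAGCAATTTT
The overlapping probes had changes of 0.03 and -0.10 in metM-Wnt (limma adjusted p = 0.983 and 0.930). In M-Wnt they fell by 0.83 and 0.84 (limma adjusted p = 0.0322 and 0.0426). These 3 probes thus gave like values within each line. They read overlapping sequence in the same samples, so they are not further replicates.

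Of the 3 measured heat shock genes, Hspb1 differed in response from M-Wnt. Hspb1, a small heat shock protein that holds unfolding proteins in solution, read -2.51, -2.17 and -1.76 in metM-Wnt control cells and -2.12, -2.11 and -1.81 after withdrawal. The groups overlapped, with a change of 0.13 ± 0.18 SE (limma adjusted p = 0.812). In M-Wnt it rose by 1.29 (limma adjusted p = 0.000145), and the difference between the lines was -1.15 ± 0.25 SE (95% interval -1.68 to -0.62, limma adjusted p = 0.0121). A catalogue probe that shares 40 bases with the named probe, in capitals, had a change of 0.12 in metM-Wnt and rose by 1.26 in M-Wnt (limma adjusted p = 0.857 and 0.000495).
Hspb1, named probe: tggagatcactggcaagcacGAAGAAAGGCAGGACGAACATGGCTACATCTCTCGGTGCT
Hspb1, overlapping probe: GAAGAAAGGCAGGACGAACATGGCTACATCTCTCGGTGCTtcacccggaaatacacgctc
The other measured members of the heat shock list, the mitochondrial chaperonin Hspd1 and the cyclophilin Ppid, had changes of -0.23 and 0.12 in metM-Wnt (limma adjusted p = 0.554 and 0.806). None of the 3 was called, and their median change was 0.12.

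Dnajb9, a co-chaperone of the endoplasmic reticulum that is induced when unfolded proteins build up there, came among the 4 smallest p-values of the named genes. It read 0.48, 0.48 and 0.70 in control cells and 0.90, 0.94 and 0.82 after withdrawal. The groups did not overlap, but the change of 0.33 ± 0.14 SE was not called (limma adjusted p = 0.275). It was the only measured member of 17 listed endoplasmic reticulum chaperones.

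Macrod2, which removes ADP-ribose from proteins, had a higher mean after withdrawal in metM-Wnt and fell in M-Wnt. It read -0.58, -0.58 and -0.57 in metM-Wnt control cells and -0.26, 0.00 and -0.31 after withdrawal. The groups stood apart, with a change of 0.39 ± 0.13 SE that was not called (limma adjusted p = 0.197), while in M-Wnt it fell by 0.56 (limma adjusted p = 0.00876). The difference in response was 0.95 ± 0.19 SE (limma adjusted p = 0.00714). Against E-Wnt the difference was not called (limma adjusted p = 0.129).

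Pdcd10, an adaptor protein whose loss causes cavernous malformations of blood vessels, read 0.93, 0.57 and 0.69 in control cells and 0.98, 1.30 and 0.72 after withdrawal. The groups overlapped (change 0.27, limma adjusted p = 0.470). In M-Wnt it fell by 0.62 (limma adjusted p = 0.0108), and the difference in response was 0.90 ± 0.22 SE (limma adjusted p = 0.0243). A non-coding probe that shares 55 bases with it, in capitals, had a change of 0.25 in metM-Wnt and fell by 0.60 in M-Wnt (limma adjusted p = 0.555 and 0.0214).
Pdcd10, named probe: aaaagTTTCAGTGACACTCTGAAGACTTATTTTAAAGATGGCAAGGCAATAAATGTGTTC
Pdcd10, overlapping probe: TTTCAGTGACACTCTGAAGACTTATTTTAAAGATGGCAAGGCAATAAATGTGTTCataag
2810021J22Rik read 1.63, 1.82 and 1.80 in metM-Wnt control cells and 1.44, 1.69 and 1.77 after withdrawal, which overlap (change -0.12, limma adjusted p = 0.694). In M-Wnt it fell by 1.17 (limma adjusted p = 5.04e-06), and the difference in response, 1.05 ± 0.15 SE (limma adjusted p = 0.000745), had the smallest p of the named genes.

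**Figure D5:**
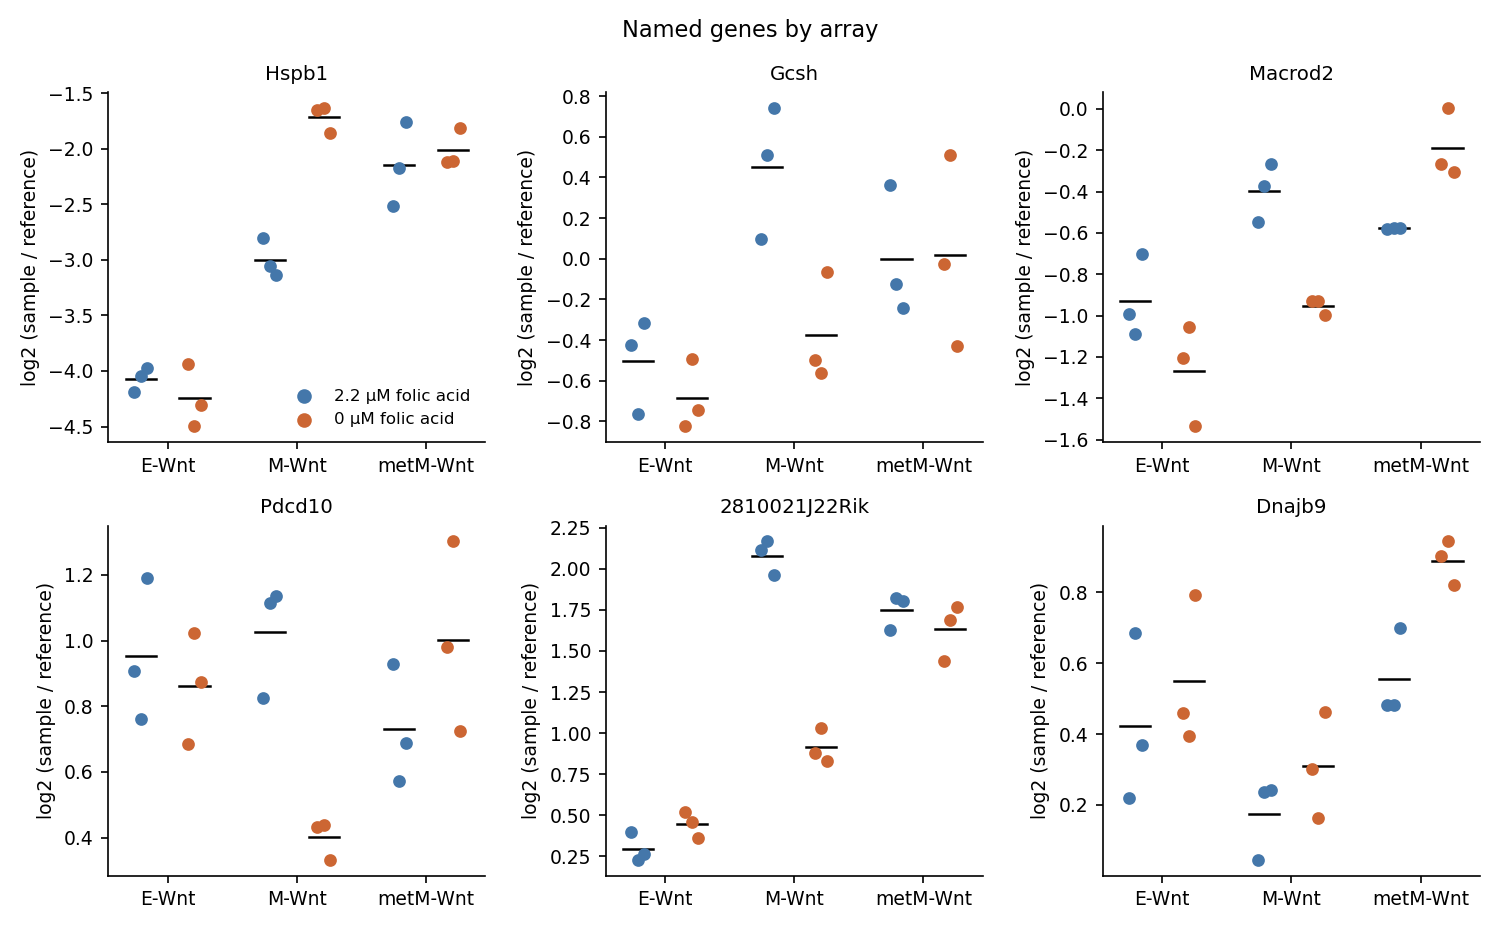
Log2 ratio of sample to NIH3T3 reference (y axis) for 6 named genes on each array, by line (x axis) and medium (colour); points are arrays and bars are means of 3. In metM-Wnt the groups overlap for Hspb1, Gcsh, Pdcd10 and 2810021J22Rik and stand apart for Macrod2 and Dnajb9.

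None of the 4 measured genes of transcription and splicing was called. Twistnb, a subunit of RNA polymerase I, had a change of -0.30 (95% interval -0.58 to -0.02, limma adjusted p = 0.318), and the splicing factor Srsf10, the elongation factor subunit Supt4a and the single-strand DNA-binding Ssbp2 had changes of 0.06, 0.06 and -0.08. In M-Wnt, Twistnb and Srsf10 fell by 0.53 and 0.48 (limma adjusted p = 0.0101 and 0.0132). The differences in response were not called (limma adjusted p = 0.498 and 0.0829).

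Metabolic and redox genes gave values near 0. Acaca, which makes malonyl-CoA for fatty acid synthesis, had a change of 0.09, and Atp5md, a small subunit of the mitochondrial ATP synthase, by 0.15. The thioredoxin-domain protein Txndc9, the selenoprotein Selenoh and the aldo-keto reductase Akr1b10 had changes of 0.01, 0.04 and 0.19. Limma adjusted p-values of these 5 lay between 0.718 and 0.989. Txndc9 fell in M-Wnt by 0.43 (limma adjusted p = 0.00792), and its difference in response was not called (limma adjusted p = 0.0856).

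Genes of membrane traffic, autophagy and the cell cortex were also not called. Rab5b, a GTPase of early endosomes, had the largest change of a named gene, -0.41 ± 0.17 SE, with ratios of 1.07, 0.69 and 0.75 in control cells and 0.28, 0.69 and 0.32 after withdrawal (limma adjusted p = 0.276). Control replicate 2 and withdrawal replicate 2 were almost level. Sec22b, a SNARE protein between endoplasmic reticulum and Golgi, had a change of 0.26, Tmem41b, a membrane protein needed to form autophagosomes, by -0.21, the Rab regulator Tbc1d16 by 0.16 and the membrane-actin linker Ezr by -0.08. Tmem41b and Tbc1d16 were called in M-Wnt, at -0.94 and 0.54 (limma adjusted p = 0.00101 and 0.0274).

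Further single genes completed the named set. Prc1, which bundles microtubules in the spindle midzone, had the widest interval, -1.49 to 0.93 around a change of -0.28, with ratios of 1.46, 2.30 and 1.82 in control cells and 1.49, 1.59 and 1.66 after withdrawal. The retrogene Rps23rg1, the whey acidic protein family member Wfdc18 and the Schlafen family member Slfn3 had changes of 0.31, 0.21 and -0.03 (limma adjusted p = 0.362, 0.627 and 0.976). AY761185 had the smallest unadjusted limma p of the named genes (0.00265). It read 0.48, 0.61 and 0.56 in control cells and 0.20, 0.15 and 0.14 after withdrawal, which stand apart, with a difference of -0.39 ± 0.11 SE (limma adjusted p = 0.118). Gm6034 (-0.28) was well above background on 3 control arrays and on 0 withdrawal arrays, and was not called (limma adjusted p = 0.238). Magea2, Defb14 and Slx4ip had changes of -0.31, -0.35 and -0.35, and Mrps15, Ccdc137, Rpl18, Ddx18 and Defb18 by -0.20, -0.23, 0.21, -0.39 and 0.16, none of them called.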

How the data were processed

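RNA of 6 groups was measured on 18 two-channel arrays with 165888 spots each, on 5 slides. Per the file headers, each deposited scanner file gives intensity of spots and of their surroundings in both channels, and Feature Extraction's own log10 ratio. Per the submitters' processing notes, Agilent Feature Extraction 10.7.3.1 was used. The deposited series table holds those log10 ratios, centred on a median of 0 per array. The array design's genome build is not given in the sources used here.

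From the deposited intensity values, background was corrected (normexp, offset 50), log2 ratios of red over green were normalised by loess within arrays with control and outlier-marked spots at weight 0, and spots of a probe were averaged (limma 3.58.1, R 4.3.3). No red spot was saturated, and 0 columns of other samples were present. Outlier marks covered 0.584% of spots on metM-Wnt withdrawal replicate 2 and at most 0.0888% elsewhere. Of 35332 probes that passed the brightness rule, 19 had no usable spot on some array and were left out. Probes were named where an accession in the ID matched a single gene of RefSeq's annotation of GRCm38.p6, which gave 193 probes of 143 genes, 182 through a transcript and 11 through a synonym. Probe sequences came from the 8 array files that list them.

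limma's lmFit and eBayes fitted 6 group means over 18 arrays (12 residual and 3.93 prior degrees of freedom), with 2-sided tests and Benjamini-Hochberg adjustment over all 35308 features. Called means an adjusted p under 0.05. The fit was tested on simulated data. Those data had independent noise and no slide or array effects, so that test does not bear on how calls depend on slides or single arrays. Precision is limited by 3 arrays per group. SEs and p-values rest on a spread between arrays that is pooled over all 6 groups, M-Wnt and E-Wnt included. Slide differences within a group are part of that spread. Genes named were the called ones, every measured gene of 29 lists, 12 further genes by smallest p, genes called in a difference in response, and 2 probe IDs each way by size, without IDs that hold an accession. The comparisons, members and lists were chosen with earlier results of these data known. The replicate numbers did not pair metM-Wnt arrays: deviations of same-numbered control and withdrawal arrays correlated at -0.34, -0.35 and 0.58. Alternatives covered background, normalization, filter, model, slide, array weights and each array left out. Statmod 1.5.0 served the robust fit.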

Additional observations from a re-analysis of the deposited data

Results flagged for a closer look

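Responses that differed between metM-Wnt and another line by a test of the difference itself (limma, adjusted p under 0.05) are listed here for the probes and genes named above. Against M-Wnt, the difference in log2 change was -6.81 for A_51_P164219 and -6.83 for A_51_P487690, and both stayed called under all 34 other settings that gave a value. Of the 61 named genes, 4 were called in this difference, next to 6.09% of all features. It was 0.95 for Macrod2, 0.90 for Pdcd10, 1.05 for 2810021J22Rik and -1.15 for Hspb1. Pdcd10 lost its call under 11 of 34 settings, Hspb1 under 4, Macrod2 under 3 and 2810021J22Rik under 2. Against E-Wnt, A_52_P561746 differed by 2.16, and lost its call under 22 of 34 settings. Groups of 3 arrays are too small for the check for outlying arrays, which was not run.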

How the results depend on the processing

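The metM-Wnt response gave 193 calls. It gave 344 with Agilent's processed signals (13.1% of them higher), 256 with the series table (26.2%), 21 with median centring (4.76%), 2715 with scale normalization between arrays (21.8%), 95 with probes above background on all 18 arrays, 0 with the 6 metM-Wnt arrays alone (4823 at an unadjusted p under 0.05), 0 with the slide as a fixed block (2816) and 0 with only the arrays of the shared slide (3050). The random slide block gave 715, at a within-slide correlation of -0.148, and array weights 965. The replicate block gave 32. The replicate numbers did not pair the arrays. With 1 array left out the count lay between 17 and 761: 17 without metM-Wnt withdrawal replicate 2, 22, 85 and 84 without metM-Wnt controls 1, 2 and 3, 128 and 62 without withdrawal replicates 1 and 3, 92, 69 and 87 without M-Wnt controls 1, 2 and 3, 79 and 65 without M-Wnt withdrawal replicates 1 and 2, 98 without E-Wnt control 1 and 761 without E-Wnt withdrawal 3. Leaving out an array cannot turn the sign of the 193, whose groups did not overlap. The sign held in 192 with the processed signals, 192 with the series table, 187 with the red channel alone and 140 of 140 measured with the all-array filter.

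The difference to M-Wnt gave 2150 calls (41.7% more positive), and 232 with median centring, 209 with the fixed slide block (20.6%), 3832 with the random slide block, 905 with the replicate block, 11402 with array weights, and 57.0% more positive with the red channel alone. With 1 array left out it lay between 1137 (M-Wnt control 2) and 3555 (E-Wnt withdrawal 3), with 1166, 1415, 1311, 1310 and 1343 without M-Wnt control 3, M-Wnt withdrawal 1 and 2, metM-Wnt control 3 and metM-Wnt withdrawal 2. The difference to E-Wnt gave 32, and 16 with the processed signals, 4 with median centring, 2196 with scale normalization (19% more positive, against 75%), 0 with the fixed slide block (3771 unadjusted), 380 with the random slide block, 4 with the replicate block and 108 with array weights. With 1 array left out it lay between 11 (metM-Wnt control 1) and 705 (E-Wnt withdrawal 3), with 71 without E-Wnt withdrawal 2 and 12 to 19 without E-Wnt control 3, E-Wnt withdrawal 1, any M-Wnt array, or metM-Wnt withdrawal 2 or 3. Tbc1d16 turned from 0.16 to -0.58 under scale normalization (limma adjusted p = 0.0381). Gm6034 was called with the processed signals (-1.19) and the series table (-1.15), and Defb14 with scale normalization (-0.60). Causes were not tested. Median centring moved the median change of all features to -0.22. A replicate left out of a group leaves 2 arrays there, and probes near background limit the falls.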
